A study of Mus musculus with 12 samples.

Results

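Plasmablasts are recognised by molecules on their surface, and 8 genes for such molecules were followed by RNA-seq through the differentiation of mouse B cells: Sdc1, Cd28, Ly6c1, Ly6c2, Ly6a, Cd93, Slamf7 and Cd9. They were taken by gene identifier from a table of read counts for 27179 genes, of which 12750 were expressed highly enough to be tested. The 8 genes were chosen by their measured levels in plasmablasts of these same libraries, so their rise from expanded B cells to plasmablasts is described here without a test. Tested comparisons with expanded cells share libraries with that rise, so they are not independent of the choice. All 8 passed the filter on low counts, Ly6c1 narrowly, with 3 to 45 reads per library. Sdc1 and Cd22 encode the proteins that the cells were sorted on at day 4, so the sort favours a difference in their RNA between those stages. How much of that difference comes from the sort was not tested.

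When a B cell becomes an antibody-secreting plasmablast it exchanges much of its surface. Receptors that sense antigen, lymph node chemokines and T cell help are reduced, and molecules that bind stroma, growth factors and survival ligands are gained. Syndecan-1 (CD138, from Sdc1) is a heparan sulphate proteoglycan and the marker by which plasma cells are usually sorted. CD28 is a costimulatory receptor best known on T cells that also serves long-lived plasma cells, and CD93 is a C-type lectin-like receptor that maintains plasma cells in the bone marrow. The Ly6 proteins are small molecules held on the membrane by a glycosylphosphatidylinositol (GPI) anchor, SLAMF7 is a homophilic receptor of the SLAM family, and CD9 is a tetraspanin that organises membrane microdomains.

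The series held 12 libraries from young adult male C57BL/6 mice, 2 biological replicates for each of 6 stages. Naive cells were resting spleen B cells sorted as negative for TCRβ and positive for B220 and IgM, with high IgD, and were not treated. All other stages came from negatively isolated B cells given 25 μg/ml lipopolysaccharide (LPS), a bacterial product that activates B cells without T cells. Cells at 3, 10 and 33 h were undivided by a division dye and CD69 positive. On day 4, cultures gave plasmablasts, sorted as CD22- CD138+, and expanded B cells, sorted as CD22+ CD138-. They were seeded at a lower density than the early cultures, so day, density and division cannot be told apart between 33 h and expanded cells. Libraries held 23026619 to 60585587 counted reads. With 2 replicates against 2, an exact two-sided permutation test cannot give a p below 0.333, so the tests below rest on a spread that edgeR estimated across genes and stages. Levels are given as RPKM (reads scaled by gene length and by library depth, with libraries scaled by TMM), changes as log2 fold changes of the later over the earlier stage with their standard error (SE), and a gene was called where the fold change passed 1.5 at an adjusted p under 0.05. In bulk samples, fewer cells that express a gene and less RNA per cell cannot be told apart.

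The labelled stages carried their defining genes. Prdm1, the regulator that drives plasmablast differentiation, was at 46.5 ± 2.72 RPKM in expanded cells and 111 ± 8.39 in plasmablasts (SD, n = 2). Jchain, which joins secreted IgM, was at 331 ± 57.9 and 7997 ± 309 RPKM, and Pax5, the keeper of B cell identity, at 76.3 ± 1.21 and 6.98 ± 0.788. Cd22 transcripts were at 98.8 ± 3.75 RPKM in expanded cells and 0.400 ± 0.0453 in plasmablasts.

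Naive libraries also held transcripts of other blood cells. Summed over 11 myeloid markers they had 283 and 127 CPM (counts scaled by library depth), led by Lyz2 with 5032 and 1642 reads, while the later stages ranged from 4.78 to 45.3 CPM, in which Lyz2 never passed 2 reads. The highest later sums, 45.3 and 44.4 CPM in expanded cells, were led by Itgam (24.3 and 21.8), Adgre1 (13.1 and 13.4) and Cd68 (7.74 and 8.99). S100a8 and S100a9 had 0 reads there. The 5 erythroid markers in the table summed to 196 and 146 CPM in naive cells and to at most 2.11 in any other library. Natural killer markers summed to 21.4 and 19.1 CPM in naive cells and to at most 5.17 elsewhere. All 11 myeloid, all 9 natural killer and all 14 T cell markers had more than 3 reads in at least 1 naive library. Naive T cell markers summed to 71.3 and 77.0 CPM, of which Lck made up 59.8 and 64.1, and to at most 41.0 elsewhere. Platelet markers summed to 2.45 and 2.37 CPM in naive cells and to at most 0.347 elsewhere. Several of the 8 genes, the Ly6 genes among them, are known in these other cells, and their part in the naive levels was not tested. In plasmablasts the myeloid list summed to 12.96 and 15.03 CPM, of which Cd68 made up 12.5 and 14.4, with Lyz2, S100a8 and S100a9 at 0 reads. T cell markers summed to 13.0 and 12.4 CPM there, of which Lck made up 7.56 and 7.97. Cd3e was at 0 reads, while Cd5 had 109 and 125, Cd3g 33 and 27, Cd4 12 and 12 and Cd3d 5 and 4.

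**Figure D1:**
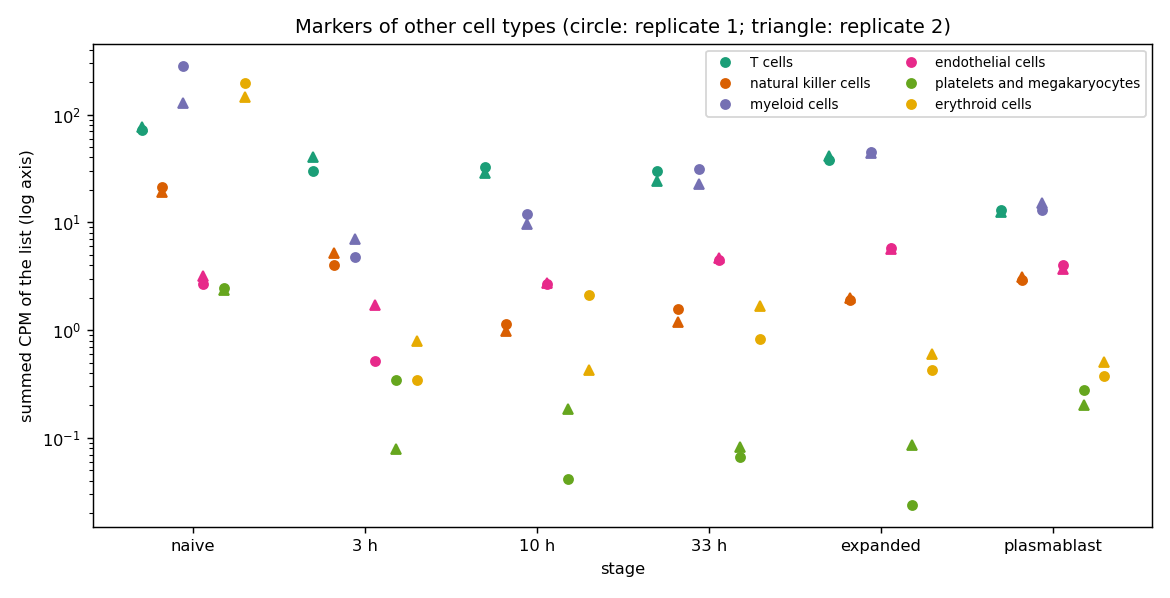
Summed CPM of marker genes of 6 other cell types (log axis) in the 12 libraries, by stage. Circles are replicate 1 and triangles replicate 2. The naive libraries stand above the later stages for myeloid (283 and 127 CPM), erythroid (196 and 146), natural killer (21.4 and 19.1), T cell (71.3 and 77.0) and platelet markers (2.45 and 2.37), and not for endothelial ones.

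Ly6c1 and Ly6c2 are near copies, so some of their reads cannot be told apart. Their coding sequences, read from the GENCODE transcripts Ly6c1-201 and Ly6c2-201 (GRCm38), are both 396 bases long and share 387 of them (97.7%). The first 150 bases of each, 5′ to 3′ from the start codon, hold 6 of the 9 differing bases, shown in capitals, and are printed to show how alike the copies are where they code for protein.
Ly6c1: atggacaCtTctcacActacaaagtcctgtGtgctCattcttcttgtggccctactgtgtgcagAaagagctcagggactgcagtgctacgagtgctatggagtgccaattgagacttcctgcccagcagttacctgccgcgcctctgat
Ly6c2: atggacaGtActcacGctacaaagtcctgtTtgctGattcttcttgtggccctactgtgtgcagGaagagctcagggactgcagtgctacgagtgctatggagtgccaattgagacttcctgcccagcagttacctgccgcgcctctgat
Over whole transcripts the copies differ more. Of the distinct 81-base windows (the read length) of Ly6c2 transcripts, 152 of 786 (19.3%) occur exactly in Ly6c1, and of those of Ly6c1, 152 of 1764 (8.62%) occur in Ly6c2, while no window of Ly6c2 occurs in Ly6a. The split between Ly6c1 and Ly6c2 is therefore given as uncertain for such reads. Ly6c1 lies at chr15:75044018-75048920, Ly6c2 at chr15:75108161-75112066 and Ly6a at chr15:74994877-74998031 (GRCm38, the same build as mm10).

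Sdc1, the sorting marker, was not at its lowest in naive cells. It lies at chr12:8771396-8793716. Its level was 8.54 and 7.72 RPKM in naive cells, 8.30 and 4.93 after 3 h, 0.598 and 0.441 after 10 h, 2.19 and 2.58 after 33 h, 1.27 and 1.71 in expanded cells, and 47.6 and 48.0 in plasmablasts. Naive cells and 3 h overlapped, and each further step down the order, to 33 h, expanded cells and 10 h, was free of overlap. Sdc1 fell by 3.63 (SE 0.26) on the log2 scale between 3 and 10 h (adjusted p = 7.77e-07) and rose by 2.17 (SE 0.26) between 10 and 33 h (adjusted p = 0.000219). Expanded cells, selected as CD138 negative, held less than naive cells (log2 fold change -2.46, SE 0.23, adjusted p = 4.38e-06). CD138 is not among the markers named for the naive sort, so selection favours this direction. The part of the sort in the difference was not tested. Between expanded cells and plasmablasts, which were sorted apart by CD138 and CD22 protein, Sdc1 RNA differed by 5.01 (SE 0.24), a fold of 32.3.

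Cd28 had few reads until day 4. The gene lies at chr1:60746388-60773359. It had 13 and 16 reads in naive cells, 0 and 6 after 3 h, 6 and 12 after 10 h, and 9 and 6 after 33 h, against 103 and 148 in expanded cells and 2073 and 2829 in plasmablasts. In RPKM the expanded libraries were at 0.597 and 1.03 and the plasmablast libraries at 20.3 and 23.1, while none of the earlier libraries passed 0.144. The rise from 33 h to expanded cells was the largest tested step of any of the 8 genes, at 4.40 (SE 0.44, adjusted p = 3.95e-05), and expanded cells also exceeded naive cells, by 2.82 (SE 0.39, adjusted p = 0.000127). From expanded cells to plasmablasts the difference was 4.75 (SE 0.27). Cd28 was the only gene of the 8 without a read in some library, and its levels at 10 h, 33 h and 3 h overlapped.

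Ly6a encodes Sca-1, known from blood stem cells, and was the most abundant of the 8 genes per length at every stage. Its RPKM were 255 and 245 in naive cells, 92.2 and 103 after 3 h, 269 and 155 after 10 h, 384 and 418 after 33 h, 167 and 188 in expanded cells, and 879 and 1071 in plasmablasts. The level thus went down, up and down again before it was highest in plasmablasts, and naive cells, 10 h and expanded cells overlapped in turn. Ly6a fell at 3 h (log2 fold change -1.36, SE 0.21, adjusted p = 0.00122). It rose from 3 to 10 h (1.12, SE 0.20, adjusted p = 0.0120), a call that was lost without 10 h replicate 1 (0.67, adjusted p = 0.290), without either 3 h library and with only the 4 libraries compared. From 10 to 33 h the change was 0.92 (SE 0.20, adjusted p = 0.101). Over the alternative settings this change ran from 0.58 to 1.38, highest without 10 h replicate 1, and was called in some of them. From 33 h to expanded cells it fell by 1.18 (SE 0.20, adjusted p = 0.0183), a call lost without either 3 h library, either 33 h library or expanded replicate 1 (adjusted p of 0.0652 to 0.111). The difference from expanded cells to plasmablasts was 2.46 (SE 0.21).

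Ly6c2 and Ly6c1 encode the Ly6C antigens that mark inflammatory monocytes and also many plasma cells. Ly6c2 was at 17.8 and 13.5 RPKM in naive cells, 1.74 and 2.13 after 3 h, 6.49 and 1.91 after 10 h, 5.64 and 4.31 after 33 h, 1.25 and 3.00 in expanded cells, and 30.5 and 30.9 in plasmablasts. Plasmablasts and naive cells were the high stages, without overlap, and each of the other 4 stages overlapped its neighbour in the order. Ly6c2 fell by 2.99 (SE 0.52) from naive cells to 3 h (adjusted p = 0.000955), and expanded cells were 2.91 (SE 0.49) below naive cells (adjusted p = 0.000727). From 3 to 10 h the change was 1.12 (SE 0.55, adjusted p = 0.255), which was -0.039 without 10 h replicate 1 and 1.72 without 10 h replicate 2, then called (adjusted p = 0.0120). From expanded cells to plasmablasts the difference was 3.88 (SE 0.49).

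Ly6c1 had the same order of its 3 highest stages at a much lower level. It had 27 and 19 reads in naive cells, 3 and 5 after 3 h, 22 and 7 after 10 h, 26 and 20 after 33 h, 8 and 4 in expanded cells, and 27 and 45 in plasmablasts, or 0.694 and 0.964 RPKM in the last. It fell by 2.19 (SE 0.55) from naive cells to 3 h (adjusted p = 0.00895), a call that was lost without 3 h replicate 2 (adjusted p = 0.0568). It was also lower in expanded than in naive cells (log2 fold change -2.21, SE 0.50, adjusted p = 0.00433). The difference from expanded cells to plasmablasts was 3.05 (SE 0.46). Ly6c1 took 4.47% (95% Wilson interval 3.09% to 6.43%) and 6.03% (4.54% to 7.98%) of the reads of both copies in plasmablasts, 5.28% (3.66% to 7.58%) and 6.38% (4.12% to 9.74%) in naive cells, and 4.76% to 16.7% in the other stages. Intervals cover counting error only, and whether reads of Ly6c2 were counted as Ly6c1 was not tested. The naive falls of both Ly6c genes and of Ly6a start from the libraries with 283 and 127 CPM of myeloid markers, whose part was not tested. Between these 2 libraries Ly6c2 differed 1.32-fold, Ly6c1 1.08-fold and Ly6a 1.04-fold.

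Cd93 (chr2:148436651-148443535) stayed between 4.08 and 5.67 RPKM until 10 h and was highest in plasmablasts. Its RPKM were 5.67 and 5.44 in naive cells, 4.08 and 5.02 after 3 h, 4.65 and 4.25 after 10 h, 7.97 and 6.86 after 33 h, 18.3 and 20.7 in expanded cells, and 119 and 110 in plasmablasts. The 3 latest stages followed each other without overlap, and 3 h and 10 h overlapped. From 10 to 33 h the change was 0.74 (SE 0.11), a fold of 1.67 that was not called against the 1.5-fold threshold (adjusted p = 0.164). An F-test without a fold threshold called it (adjusted p = 0.000201). Cd93 rose from 33 h to expanded cells by 1.39 (SE 0.11, adjusted p = 4.21e-05), and from naive to expanded cells by 1.81 (SE 0.12, adjusted p = 2.13e-07). From expanded cells to plasmablasts the difference was 2.56 (SE 0.12).

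Slamf7 and Cd9 were high early as well as late. Slamf7 (chr1:171632403-171653037) was at 25.5 and 25.3 RPKM in naive cells, 65.0 and 78.4 after 3 h, 42.5 and 43.0 after 10 h, 12.8 and 13.8 after 33 h, 32.3 and 35.1 in expanded cells, and 94.1 and 97.1 in plasmablasts. No neighbouring stages overlapped in its order. It rose at 3 h 2.83-fold (log2 SE 0.10, adjusted p = 4.28e-07), fell by 1.68 (SE 0.10) between 10 and 33 h (adjusted p = 3.99e-07) and rose by 1.34 (SE 0.10) from 33 h to expanded cells (adjusted p = 2.08e-05). Between 3 and 10 h the change was -0.75 (SE 0.10, adjusted p = 0.0516). Over the alternative settings it ran from -0.87, without 3 h replicate 1, to -0.42, and was called in some of them. The difference between expanded cells and plasmablasts was 1.51 (SE 0.10), so plasmablasts stood 1.33-fold above 3 h by their means.

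Cd9 (chr6:125460266-125494760) was the 1 gene whose highest mean was not in plasmablasts. Its RPKM were 7.06 and 6.25 in naive cells, 42.1 and 61.4 after 3 h, 28.1 and 28.8 after 10 h, 6.89 and 13.4 after 33 h, 19.9 and 22.4 in expanded cells, and 40.8 and 45.4 in plasmablasts. The 3 h and plasmablast libraries overlapped, as did 33 h and naive cells. Cd9 rose at 3 h by 2.96 (SE 0.27, adjusted p = 5.51e-06) and fell by 1.51 (SE 0.26) from 10 to 33 h (adjusted p = 0.00637, or 0.0714 with only the 4 libraries compared). From 33 h to expanded cells the change was 1.08 (SE 0.26, adjusted p = 0.0930). Over the alternative settings it ran from 0.66 to 1.61, highest without 33 h replicate 2, and was called in some of them. Expanded cells exceeded naive cells by 1.67 (SE 0.27, adjusted p = 0.00120), and the difference from expanded cells to plasmablasts was 1.03 (SE 0.25).

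**Figure D2:**
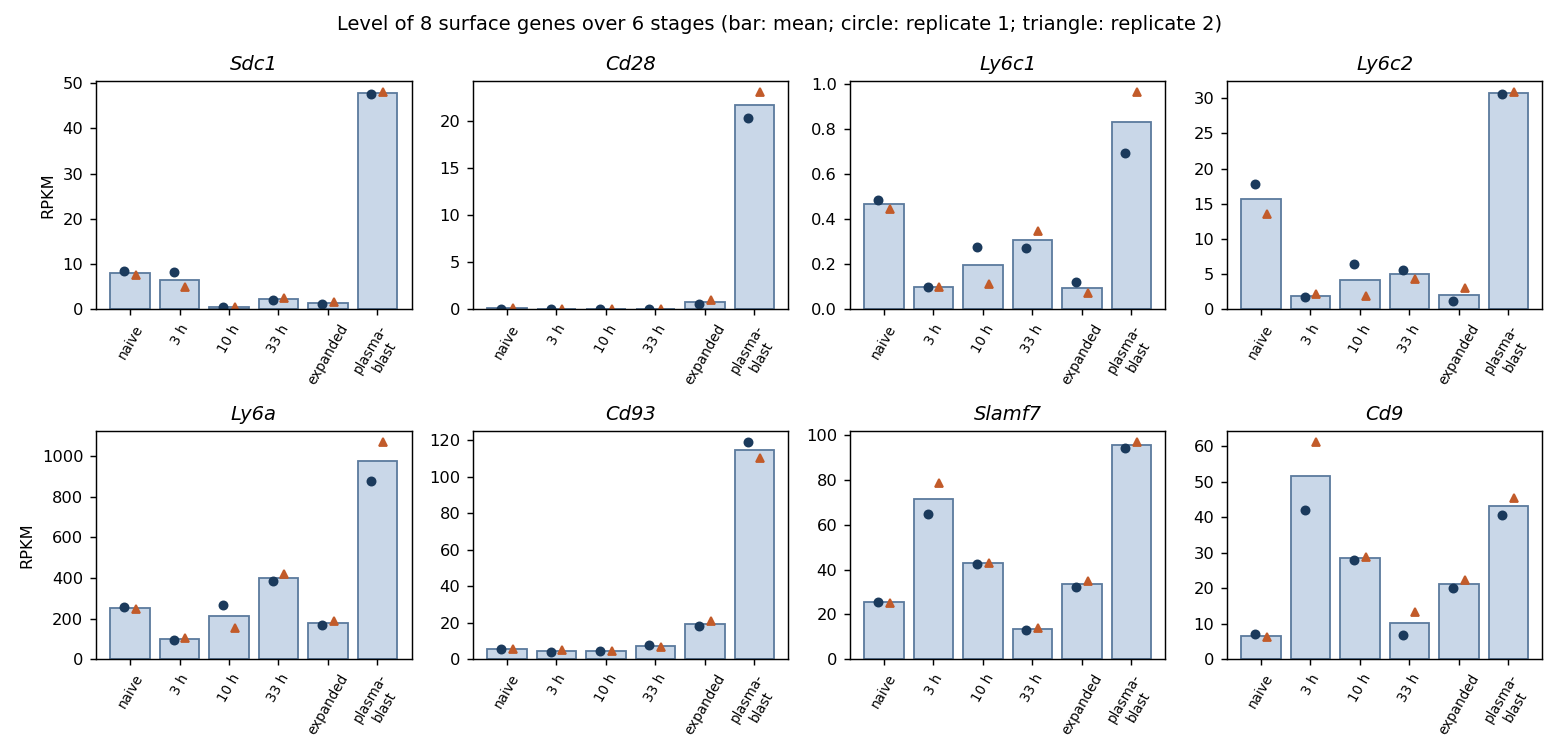
RPKM of the 8 genes (1 panel each, linear axes from 0 with their own scale) at the 6 stages. Bars are means of 2 libraries, circles replicate 1 and triangles replicate 2. The plasmablast bar is the tallest in 7 panels, and in the Cd9 panel the 3 h bar is, at 51.8 RPKM against 43.1.

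Counted by step, the 8 genes did not move as one. From naive cells to 3 h, 2 rose (Slamf7, Cd9) and 3 fell (Ly6c1, Ly6c2, Ly6a), where 21.0% of all tested genes rose and 24.3% fell. From 3 to 10 h, 1 rose (Ly6a) and 1 fell (Sdc1), beside 17.4% and 13.4% of all genes. From 10 to 33 h, 1 rose (Sdc1) and 2 fell (Slamf7, Cd9), beside 10.1% and 4.45%. From 33 h to expanded cells, 3 rose (Cd28, Cd93, Slamf7) and 1 fell (Ly6a), beside 6.94% and 3.66%. Between naive and expanded cells, 3 were higher in expanded cells (Cd28, Cd93, Cd9) and 3 lower (Sdc1, Ly6c1, Ly6c2), beside 24.9% and 22.2%. Of the lower genes, Sdc1 encodes CD138, for whose absence expanded cells were sorted. The median change of the 8 genes in these comparisons was -0.84, 0.36, 0.41, 0.20 and -0.04, against -0.03, 0.02, -0.02, -0.02 and 0.03 over all tested genes. The comparisons that share a stage share its libraries. Those with expanded cells also use libraries of the step on which the 8 genes were chosen. Their calls are therefore not independent of that choice.

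From expanded cells to plasmablasts all 8 genes were higher, by 1.03 to 5.01 on the log2 scale. Of all tested genes, 13.9% rose and 12.2% fell. The 8 genes were chosen on this step, so no calls are given for them and nothing is read from their rise. The median difference was 2.80 over the 8 genes and -0.05 over all genes. Scaling by library size alone lowered all changes of this step, with the median of all genes at -0.38, and the smallest of the 8 differences was then 0.69, for Cd9. That scaling put 28.6% of the called genes of this step among the risen instead of 53.3%. It gave 36.0% instead of 46.3% from naive cells to 3 h and 77.4% instead of 56.5% from 3 to 10 h.

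**Figure D3:**
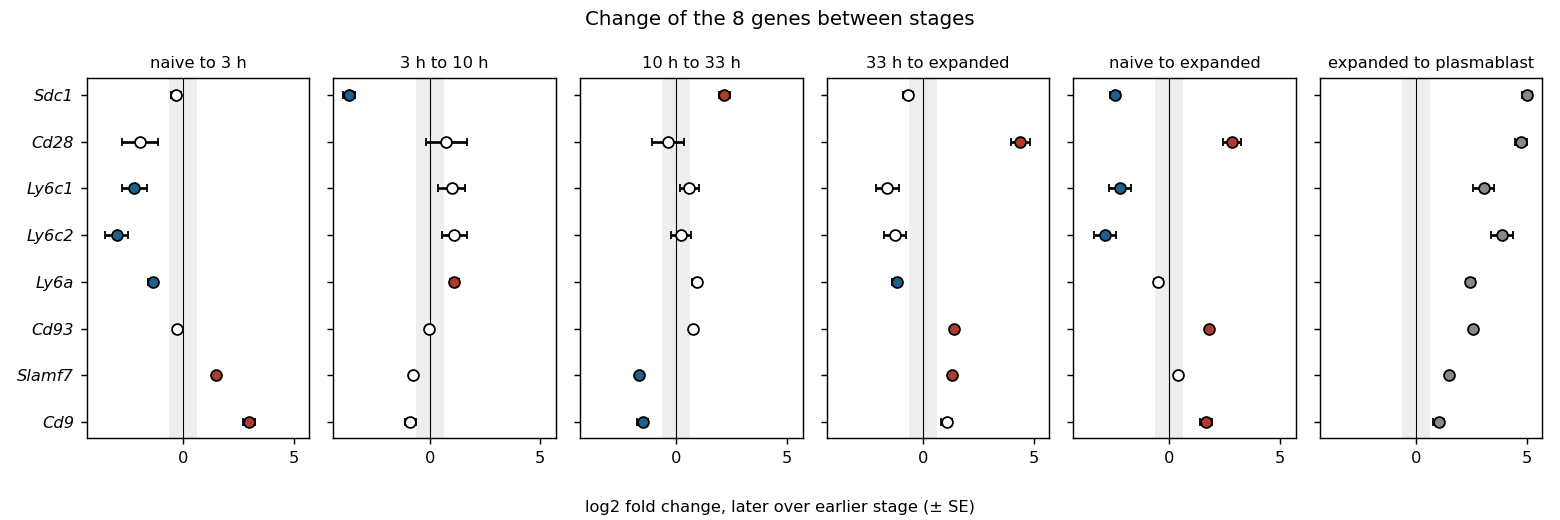
Log2 fold change (± SE of the edgeR fit) of the 8 genes in 6 comparisons of stages. Red points were called higher and blue points lower in the later stage, white points were not called, grey points of the last panel were used to choose the genes and carry no test, and the grey band is a fold change under 1.5. Cd28 moved by 4.40 from 33 h to expanded cells, and the 8 grey points lie between 1.03 and 5.01.

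The 10 h replicates stood apart for the Ly6 genes. In replicate 1 over replicate 2, Ly6c2 was 3.39-fold, Ly6c1 2.47-fold and Ly6a 1.73-fold higher at 10 h, while Sdc1 was at 1.36, Cd93, Slamf7 and Cd9 at 1.09, 0.987 and 0.977, and Cd28, with 6 and 12 reads, at 0.393. A list of 12 interferon-induced genes, picked after this was seen, was higher in replicate 1 for all 12 genes, by a median of 2.34-fold and a range of 1.505 to 6.29. Its part in the Ly6 levels was not tested. At 33 h all 12 were higher in replicate 1 as well, by a median of 1.48-fold, and there Ly6a was at 0.920, Ly6c1 at 0.786 and Ly6c2 at 1.31. The list had a median ratio of 1.30 in naive cells, with Ly6a at 1.04, Ly6c1 at 1.08 and Ly6c2 at 1.32. After 3 h its median ratio was 0.642, with Ly6a at 0.898, Ly6c1 at 1.02 and Ly6c2 at 0.816. In expanded cells the list had a median ratio of 1.04, with Ly6a at 0.884, Ly6c1 at 1.67 and Ly6c2 at 0.417. In plasmablasts the list had a median ratio of 1.003, with Ly6a at 0.821, Ly6c1 at 0.720 and Ly6c2 at 0.988.

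**Figure D4:**
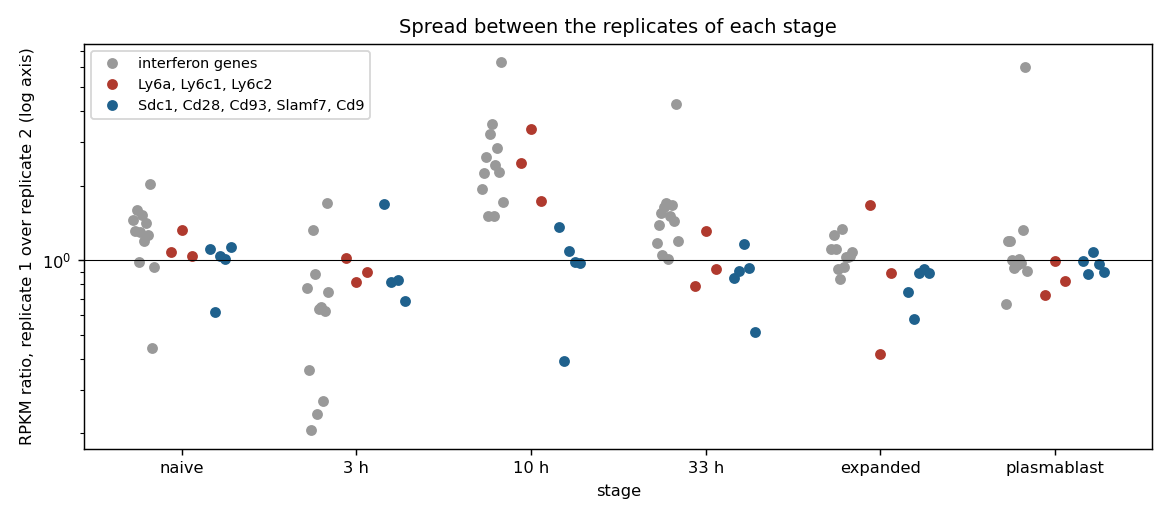
RPKM of replicate 1 over replicate 2 (log axis) at each stage for 12 interferon genes (grey), Ly6a, Ly6c1 and Ly6c2 (red) and the other members (blue), leaving out pairs with a 0. At 10 h all grey and red points lie above 1, the red ones at 1.73 to 3.39.

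Relatives of the 8 genes, from lists of gene names that excluded the members, were compared between expanded cells and plasmablasts, the step on which the 8 genes were chosen. The lists, too, were made with earlier results of these data known. Of the other 6 tested Ly6 genes, 4 rose and none fell, with a median change of 1.02 against -0.05 over all genes. The shares of all tested genes for this and the following lists are the 13.9% that rose and the 12.2% that fell. Ly6i and Ly6m, GPI-anchored relatives in the same cluster on chromosome 15, went from 0.228 to 2.504 RPKM (log2 fold change 3.41, SE 0.44, adjusted p = 7.97e-05) and from 0.493 to 2.01 (2.03, SE 0.34, adjusted p = 0.00128). Ly6e, an abundant relative known to hinder virus entry, went from 635 to 1475 RPKM (1.22, SE 0.11, adjusted p = 5.25e-05), and its naive level was 1522. Ly6d, a marker of B cell precursors, was the 4th. Of the other syndecans 2 were tested, and Sdc3 rose from 0.759 to 5.25 RPKM (2.79, SE 0.49, adjusted p = 0.00240). Of the relatives of CD93, only Thbd, the thrombin receptor thrombomodulin and a near neighbour of Cd93 on chromosome 2, was tested. It went from 0.203 to 4.45 RPKM (4.43, SE 0.23, adjusted p = 1.84e-08).

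Relatives of CD28 and their ligands changed in both directions. Of 10 tested, 1 rose and 3 fell (13.9% and 12.2% over all genes), with a median of -0.08. The riser was Ctla4, the inhibitory receptor that binds the same ligands as CD28 and lies near it at chr1:60909025-60915832. Its reads were 191 and 299 in expanded cells and 3170 and 3722 in plasmablasts (4.28, SE 0.32, adjusted p = 1.97e-06). The ligands of CD28 went the other way, Cd80 from 489 and 347 reads to 39 and 43 (-2.84, SE 0.29, adjusted p = 1.43e-05) and Cd86 from 8.21 to 1.40 RPKM (-2.56, adjusted p = 6.01e-07). Pdcd1lg2, a ligand of the inhibitory receptor PD-1, fell from 49 and 59 reads to 6 and 5 (-2.79, SE 0.49, adjusted p = 0.00124). Cd86 and Ly6d stand outside the rule for named genes and were added after their values were seen.

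Of 9 other SLAM receptors and adaptors, 2 rose and 2 fell (13.9% and 12.2% over all genes), with a median of 0.18. Slamf9 rose from 2.19 to 30.4 RPKM (3.80, SE 0.24, adjusted p = 1.01e-07), and Slamf1, a receptor of activated lymphocytes, fell from 2.11 to 0.421 (-2.34, SE 0.23, adjusted p = 1.26e-05). Cd244a, a receptor best known on natural killer cells, went from 74 and 44 reads to 0 and 4 (-4.32, SE 0.78, adjusted p = 0.00114), a ratio of 0.0478 with a 95% counting interval of 0.0128 to 0.126. Of 18 other tetraspanins, 5 rose and 2 fell, beside the same shares, with a median of 0.27. Tspan15 rose from 16 and 23 reads to 106 and 107 (2.93, SE 0.39, adjusted p = 0.000134) and Cd63, a tetraspanin of lysosomes, from 2 and 9 to 29 and 39 (3.07, SE 0.50, adjusted p = 0.000629). Tspan2 fell from 168 and 123 reads to 14 and 7 (-3.27, SE 0.32, adjusted p = 8.45e-06).

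Other surface genes known from plasma cells and from B cells were counted beside the same 13.9% and 12.2% of all genes. Of 21 other plasma cell surface genes tested, 9 rose and 4 fell, with a median of 0.52. Tnfrsf17, which encodes the survival receptor BCMA, had 0 and 2 reads in expanded cells and 144 and 199 in plasmablasts, a ratio of 242 with a 95% counting interval of 66.4 to 2005. Epcam, an adhesion molecule, rose from 2.69 to 24.8 RPKM (3.21, SE 0.43, adjusted p = 0.000334), and Fcrl5, an Fc receptor-like inhibitor, fell from 40.0 to 5.29 (-2.92, SE 0.16, adjusted p = 5.41e-08). Of 24 B cell surface genes, 2 rose and 9 fell, with a median of -0.54. The falls included Ccr7, the chemokine receptor that guides cells into lymph nodes, from 23.5 to 1.01 RPKM (-4.54, SE 0.21, adjusted p = 1.83e-08), and Cd22, a sorting marker.

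The pathways that finish these surface proteins were counted in the same way. Of 15 tested genes that build or edit heparan sulphate, the sugar carried by syndecan-1, 4 rose and none fell, with a median of 0.31. The list includes Hpse, which cuts the chain, and Sulf2, which removes sulphate from it, and neither was called. Xylt1, which starts the chain, rose by 1.47 (SE 0.30, adjusted p = 0.0113), Ext1, which extends it, by 1.31 (SE 0.10, adjusted p = 7.37e-06) and B3gat3, which completes the linker, by 1.03 (SE 0.13, adjusted p = 0.00236). Of 25 tested genes for the GPI anchor that holds Ly6 proteins, 7 rose and 1 fell, with a median of 0.29. Among them Dpm3, part of the enzyme that supplies the mannose donor, rose by 1.98 (SE 0.12, adjusted p = 3.17e-07), Pigt, part of the transamidase that attaches the anchor, by 1.47 (SE 0.12, adjusted p = 8.05e-06) and Pgap3, which remodels its lipid, by 1.31 (SE 0.15, adjusted p = 0.000334).

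**Figure D5:**
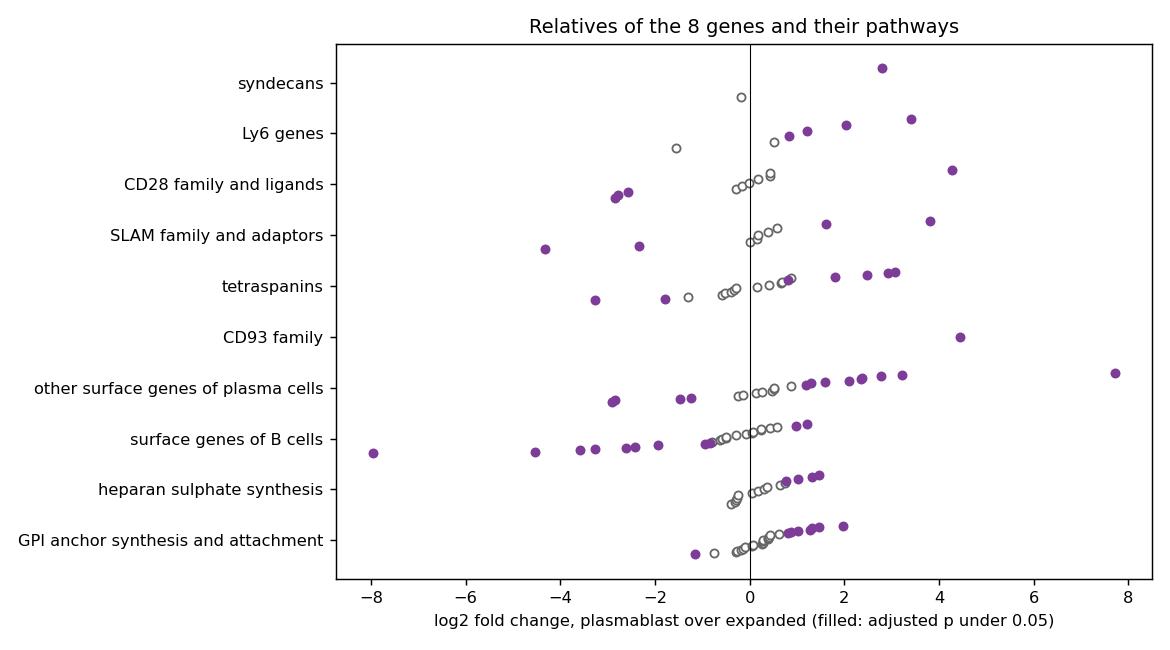
Log2 fold change from expanded cells to plasmablasts of each tested relative (1 point per gene, members excluded) in 10 lists. Filled points passed the test and open points did not. The point farthest right is Tnfrsf17, with 0 and 2 reads in expanded cells, and the one farthest left is the sorting marker Cd22.

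Patterns over the 12 libraries were compared by the Pearson correlation of log2 RPKM, as a description. The libraries share stages and include the plasmablasts in which the 8 genes were chosen as high, so a shared rise there is built in. The correlation was 0.968 for Cd28 and Cd93, 0.936 for Ly6c1 and Ly6c2, 0.875 for Ly6c1 and Ly6a and 0.864 for Slamf7 and Cd9. Cd9 had -0.222 with Ly6c1, and Sdc1 had its highest value, 0.713, with Ly6c2. Among 8612 or 8613 other well-expressed genes, those most like Cd93 were Galnt2, Spcs2 and Dnajc3 (0.993, 0.993 and 0.992), and those most like Cd28 were Wfs1, Trabd and Yipf2 (0.989, 0.987 and 0.983). Sdc1 was nearest to Trim24, Pld3 and Reep5 (0.951, 0.949 and 0.942). Ly6a was nearest to Pex2, Tbrg1 and Tapbp (0.948, 0.948 and 0.938). The genes nearest to Ly6c2 were Gm4070, Gvin1 and Slc35c2 (0.966, 0.961 and 0.932), and Ly6c1 was nearest to Slc35c2, Amz2 and Gvin1 (0.940, 0.921 and 0.920). Gm4070 and Gvin1 belong to a family of near-identical copies, so their reads are uncertain. Slamf7 was nearest to Rab18, Hacd2 and Tle1 (0.967, 0.962 and 0.946), and Cd9 to Atf4, Nln and Ghitm (0.957, 0.955 and 0.943). Atf4, a transcription factor of the stress response, was at 26.2 RPKM in naive cells, 221 after 3 h and 138 in plasmablasts.

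RefSeq promoter windows, 250 bases before to 50 after a start site (GRCm38.p6), were found for 5 of the 8 genes, in 7 windows, and were searched on both strands for 5 short motifs. The motifs may overlap. The PRDM1 core GNGAAAG was in 22.6% of all 32851 windows, the interferon-stimulated response element (ISRE) core GAAANNGAA in 8.56%, the Ets-IRF composite core GGAANNGAA in 8.24%, the STAT core TTCNNNGAA in 8.30% and the XBP1 core TGACGTG in 2.01%. Of the 7 member windows 2 held a match to any of them. The Cd9 window held a PRDM1 core and an ISRE core, whose first bases lie at -192 and -127 from the start site, and 1 of the 2 Ly6c1 windows held a PRDM1 core at 20 bases past the start. Windows of Sdc1, Slamf7 and Ly6c2 held none. The 250 bases before the start sites of Cd9 (chr6:125494761-125495010, minus strand) and Sdc1 (chr12:8771146-8771395, plus strand) are shown 5′ to 3′ because these genes had the least and the most different levels between expanded cells and plasmablasts, with motif matches in capitals.
Cd9: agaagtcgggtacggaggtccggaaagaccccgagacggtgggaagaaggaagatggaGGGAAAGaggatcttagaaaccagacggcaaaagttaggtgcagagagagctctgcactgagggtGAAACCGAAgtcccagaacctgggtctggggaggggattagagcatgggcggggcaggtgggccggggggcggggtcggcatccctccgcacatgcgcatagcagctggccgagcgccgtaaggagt
Sdc1: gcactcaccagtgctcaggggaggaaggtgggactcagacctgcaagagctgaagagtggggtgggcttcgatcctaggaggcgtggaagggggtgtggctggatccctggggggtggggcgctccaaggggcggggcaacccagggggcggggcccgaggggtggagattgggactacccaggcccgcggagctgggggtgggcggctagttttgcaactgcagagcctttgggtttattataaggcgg
A match is only a match of letters, and the absence of one says only that these letters are not in this window.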

How the data were processed

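RNA-seq was measured in 12 libraries, 2 for each of 6 stages. The authors prepared TruSeq libraries, sequenced paired 81-base reads on an Illumina NextSeq, aligned them to mm10 with Rsubread and counted reads per Entrez gene with featureCounts. The submitters' processing notes also name CASAVA 1.8.2. The deposited values are raw read counts with the exon length of each gene. Whether counting used strand is not given in the sources used here. Total counts ran from 23026619 to 60585587, so 3 reads, the floor used here, are 0.0495 to 0.130 CPM.

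Identifiers were matched to RefSeq (GRCm38.p6) for 25275 of 27179 genes. Genes without a match (1.41% to 2.08% of counts), rRNA, mitochondrial, X and Y genes and variable immunoglobulin segments were removed, after the study's methods, which left 23700, and filterByExpr kept 12750. R 4.3.3 with edgeR 4.0.16 and limma 3.58.1 was used: TMM, robust quasi-likelihood in its earlier form, a one-way layout of all 12 libraries, glmTreat against a fold of 1.5 and Benjamini-Hochberg adjustment over all tested genes at 0.05. SE is the log2 fold change divided by the square root of the quasi-likelihood F. Correlations used log2 RPKM with a prior count of 2 and genes of a mean log2 CPM of at least 3. Counts of 12282 genes were simulated for expanded cells against plasmablasts. Of the genes changed 2, 3, 4 and 8-fold, 42%, 92%, 96% and 98% were called, and 0 unchanged genes were. Only 200 genes were changed, drawn from those with more reads, and all others had no change. These shares therefore do not cover genes with few reads, such as Ly6c1, or data in which many genes change.

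The members and gene lists were chosen with earlier results of these data known. Named relatives are the 3 called genes with the largest change per list, or fewer where fewer were called, named neighbours the 3 genes with the highest correlation. Some genes that this rule names are not reported here. Alternatives were DESeq2 1.42.0 size factors, library size alone, DESeq2's Wald test with a fitted fold past 1.5, no filter or at least 10 counts in every library, no robust mode, the newer quasi-likelihood method, a replicate term, only the 4 libraries compared, keeping removed genes, an F-test and leaving out each library. Leaving out both naive libraries was added after the data were seen. Hi-C data were not analysed here.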

Additional observations from a re-analysis of the deposited data

How the results depend on the processing

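Of 40 changes of the 8 genes in the 5 tested comparisons, 20 were called and 16 of these were called under every alternative that gave a value. The exceptions were Ly6c1 from naive cells to 3 h, Ly6a from 3 to 10 h and from 33 h to expanded cells, and Cd9 from 10 to 33 h, whose values stand in the report. Of the 20 not called, 13 were called under some alternative, most often the F-test without a fold threshold. From 3 to 10 h the main count of called members, 2, was 4 with DESeq2's Wald test, 4 with no filter on low counts, 4 with the F-test and 1 with only the 4 libraries compared, and it was 1 to 3 when single libraries were left out, 1 without 3 h replicate 2 or 10 h replicate 1. From 10 to 33 h the count of 3 was 5 with DESeq2's Wald test and 5 with the F-test. From 33 h to expanded cells the count of 4 was 7 with the F-test. The count of called relatives from expanded cells to plasmablasts, 57, was 92 with the F-test. Each of these alternatives tests against a smaller change, keeps more genes or uses fewer samples. Leaving out single libraries moved that count to between 46 and 57. 4 changes that were not called changed sign. Cd28 from 10 to 33 h ran from -0.95 to 0.37 when single libraries were left out, positive only without 10 h replicate 2. Ly6c2 ran from -0.039 (without 10 h replicate 1) to 1.72 from 3 to 10 h and from -0.37 (without 10 h replicate 2) to 1.39 from 10 to 33 h. Cd93 from 3 to 10 h was 0.29 with library size alone and ran from -0.17 to 0.14 when single libraries were left out, positive without 3 h replicate 2 or 10 h replicate 2. For these the cause was not tested. Same-numbered replicates did not deviate together (correlations of -0.139 to 0.084 over 15 pairs of stages), and with a replicate block 6, 3, 3, 5 and 6 members were called in the 5 comparisons, against 5, 2, 3, 4 and 6. Leaving out both naive libraries gave 2, 3 and 4 called members in the steps from 3 h to expanded cells, as with them. Depth limits Ly6c1 and early Cd28, with at most 45 and 16 reads per library. With at least 10 counts in every library required, neither was tested.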
